A study of Homo sapiens with 9 samples.

Results

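The proteins of the cytosolic ribosome were followed here through the messenger RNAs that encode them. The set was defined by gene symbol (RPL, RPLP, RPS and RPSA names of the cytosolic ribosome, with mitochondrial ribosomal proteins, kinases and pseudogenes left out), and FPKM values were summed over the transcripts of each gene. It held 78 of 26196 genes in the deposited table, 47 of the large (60S) subunit and 31 of the small (40S) subunit. FPKM counts sequenced fragments per kilobase of a transcript and relative to all fragments of the library, so it is a share of the sequenced RNA rather than an amount per cell.

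The cells were HCA2, a line of human foreskin fibroblasts, and 9 libraries of polyA RNA were made from them. The 3 normal libraries came from cells labelled proliferative, which were taken as not given the drugs below. They carry the label PD-L1 positive, and no label says whether they were sorted. The 6 senescent libraries came from cells exposed for 24 hours to 100 nM doxorubicin, which damages DNA, and then held in 100 nM BI-2536, which blocks the mitotic kinase PLK1, up to 12 days in total. Of these, 3 were from cells sorted as PD-L1-negative and 3 from cells sorted as PD-L1-positive. PD-L1 is the ligand of the T cell receptor PD-1. All libraries came from 1 line, and no label says whether replicates were separate cultures, so p-values measure only the spread between these libraries. Senescence and the 2 drugs cannot be told apart in this design.

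Each ribosome carries one copy of nearly every one of these proteins, and cells make them in matched amounts, with unassembled copies degraded. Many of their messenger RNAs begin with a terminal oligopyrimidine (TOP) tract, a C followed by a run of C and T bases, through which mTORC1, a growth-sensing kinase, and LARP1, which binds the tract, regulate their translation and stability. Senescent fibroblasts enlarge and secrete protein, and defects of ribosome production are known to stabilise p53 through free RPL5 and RPL11 bound to MDM2.

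The starts of 7 members the results turn on are shown first, because they show the shared TOP element and starts where it does not begin at the annotated base. Each line gives 10 bases before and 15 bases from the annotated first base of the gene, on the gene's own strand, and capitals mark the TOP tract where one begins at that base. The sequences are from RefSeq on GRCh38.p14.
RPL31 (chr2:101002279-101002303, + strand): ccttcgcgctCTTCCTTTCCaactt
RPL13A (chr19:49487598-49487622, + strand): aaacctcctcCTTTTCCaagcggct
RPLP1 (chr15:69452808-69452832, + strand): ggcgcgagagCCCCTTTCCTCagct
RPS6 (chr9:19380222-19380246, - strand): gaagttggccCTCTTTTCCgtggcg
RPSA (chr3:39406710-39406734, + strand): tgccgcctgtCTTTTCCgtgctacc
RPS28 (chr19:8321486-8321510, + strand): gaagcacgtgactcctctccgccag
RPS7 (chr2:3575250-3575274, + strand): cgccctcctcctcgcgctgtttccg

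A promoter entry was matched for 63 of the 78 members. A start of this kind, a C at the annotated first base followed by at least 4 bases that were each C or T, was found in 46 of the 63 (73.0%) and in 1404 of 27305 genes of the same table (5.14%). The tract was present at the annotated start of RPL31, which rose in senescent cells, and of RPSA, which fell. It was not found at that base in RPS28, which rose, or RPS7, which fell. In RPS28, however, a C followed by a run of C and T bases begins at the very next base. In RPS7 such a run lies across the annotated base but begins before it. These matches describe the letters at an annotated base and say nothing on which start the fibroblasts used.

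The 2 main RPS24 transcripts differ by an exon of 22 bases, which is shown because the largest change among the members was in its use. It lies at chr10:78040204-78040225 on the + strand of GRCh38 (GENCODE 29), where it is exon 5 of 6 and brings the stop codon of NM_033022, in capitals, which closes a reading frame of 130 codons. NM_001026 skips it and ends its frame of 133 codons in the last exon, whose first 12 bases, at chr10:78040615-78040626, run to the stop codon in capitals.
RPS24 exon of NM_033022: TGAgctggagattggatcacag
RPS24 last exon, NM_001026: ccgaaggagTAA

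In normal cells RPS24, a small-subunit protein mutated in some patients with Diamond-Blackfan anaemia, was expressed mainly as NM_001026, and in both senescent fractions mainly as NM_033022. NM_001026 had 583.8, 574.5 and 545.8 FPKM in the 3 normal libraries. It had 75.9, 71.4 and 87.8 FPKM in the PD-L1-negative libraries and 75.4, 57.1 and 71.8 in the PD-L1-positive ones. The lowest normal library was therefore far above the highest senescent one. On the log2(FPKM + 0.5) scale, used for all fold changes here, NM_001026 fell by 2.96 (SE 0.11, limma adjusted p = 2.05e-06). NM_033022 had 288.0, 216.4 and 281.8 FPKM in the normal libraries. It had 829.0, 972.7 and 799.3 FPKM in the PD-L1-negative libraries and 758.8, 753.3 and 731.5 in the PD-L1-positive ones. Again the groups did not overlap, and NM_033022 rose by 1.63 log2 units (SE 0.11, adjusted p = 3.99e-05). Over 20 alternative settings the change ranged from -3.08 to -2.90 for NM_001026 and from 1.495 to 1.84 for NM_033022, with both called throughout.

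As a share of the gene's own FPKM, which a scaling factor per library cannot move, NM_033022 made up 33.0%, 27.3% and 34.0% in normal libraries. It made up 91.1%, 92.8% and 89.5% in PD-L1-negative and 90.6%, 92.6% and 90.4% in PD-L1-positive libraries. The means were 31.4% ± 3.58 (SD, n = 3), 91.1% ± 1.62 and 91.2% ± 1.20, and those of the 2 senescent fractions differed by less than their SD. The gene's summed level did not pass the test, with 873.5, 791.3 and 829.1 FPKM in normal libraries and 0.09 on the log2 scale (SE 0.08, adjusted p = 0.414), so the change of transcript was not visible in it. MKI67, a marker of cycling cells, was at 61.3, 33.4 and 12.7 FPKM in the normal and between 1.64 and 6.09 FPKM in the senescent libraries, and the part of cycling in the change of transcript was not tested. The transcripts are told apart by few bases, and the program that assigned fragments to them is not named, so the shares depend on that assignment.

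**Figure D1:**
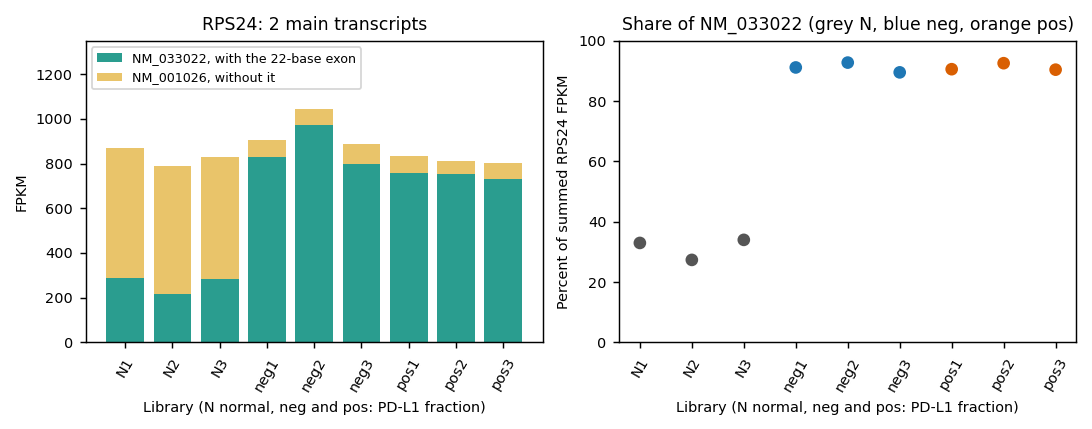
RPS24 by library: the left panel stacks the FPKM of its 2 main transcripts, and the right panel gives the share of NM_033022 in percent of the gene's summed FPKM. The share was between 27.3% and 34.0% in the 3 normal libraries and between 89.5% and 92.8% in the 6 senescent ones.

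Other members with several transcripts changed in smaller parts of their output. Of 153 listed transcripts of the members, 134 were tested, and 26 rose and 13 fell in senescent cells. Over all 19964 transcripts tested, 16.1% were called higher and 20.7% lower. Of 56 tested transcripts that were not their gene's most abundant one, 11 fell and 8 rose. Among the most abundant transcripts of the 78 members, 2 fell and 18 rose. Calls in both directions were found in 3 genes, RPL15, RPL34 and RPS24. The lower call of RPL34, on NM_033625, was lost in 8 of 20 alternative settings, 6 of them with 1 library left out (adjusted p up to 0.13). The totals of 26 and 13 moved with the setting, from 13 to 55 higher and from 6 to 25 lower.

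NM_001034996 of RPL14, a large-subunit protein, had 13.3, 11.1 and 13.7 FPKM in normal libraries and between 37.6 and 58.0 in the senescent ones, a rise of 1.77 log2 units (SE 0.11, adjusted p = 2.25e-05). It went from 1.93% of the gene's FPKM in normal cells to 7.83% in the PD-L1-negative and 6.77% in the PD-L1-positive fraction. In RPL15, a core protein of the large subunit, NM_001253383 rose by 0.67 (SE 0.10, adjusted p = 0.00107), from 39.0% of the gene's FPKM in normal cells to 51.7% and 47.4%. NM_001253382 of the same gene fell by 0.64 (SE 0.12, adjusted p = 0.00326), from 11.0% to 5.32% and 5.97%. The minor transcript NM_001030001 of RPS29, a zinc-binding small-subunit protein, had 1.74, 2.14 and 3.24 FPKM in normal and between 8.02 and 10.4 in senescent libraries, and it rose by 1.76 (SE 0.16, adjusted p = 0.000117). Minor transcripts that fell included NM_053275 of RPLP0, from 143 ± 11.9 (SD, n = 3) to 107 ± 6.503 FPKM (SD, n = 6), and NM_001024662 of RPL6, from 23.2 to 11.5 FPKM.

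Most members were among the most abundant messenger RNAs of the cells. The mean over the 9 libraries was at least 500 FPKM for 60 of the 78, with a median of 827 and the highest value, 2618, for RPL41, the smallest protein of the set. It was below 200 FPKM for 7 members, among them RPL27A, RPL21, RPL13, RPS23, RPL22 and RPL37. All 78 passed the filter of a mean of at least 0.5 FPKM, 1 of them only through a single library.

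Together the members took 13.8%, 13.6% and 13.2% of all FPKM in the normal libraries. Their share was 14.3%, 15.8% and 14.7% in the PD-L1-negative and 13.7%, 13.1% and 12.6% in the PD-L1-positive libraries. The PD-L1-negative values were all above the normal ones, and the PD-L1-positive values overlapped them. PD-L1-negative replicate 2 stood apart, with a summed level of 83330 FPKM against 67639 and 70184 in the other libraries of its group, and it was the highest of all 9 libraries for 73 of the 78 members. The counts of members called and the differences of the PD-L1-negative fraction named below are therefore also given without it. Depth could only be estimated, at 11700000 to 17800000 fragments per library if the smallest step between low values of long genes stands for 1 fragment. Of the fibroblast markers, 10 of 10 were detected, with summed levels of 9766 to 12330 FPKM in normal and 14279 to 17241 in senescent libraries. Keratinocyte markers summed to at most 0.16 FPKM, endothelial markers to at most 1.70 and melanocyte markers to at most 2.36 (DCT was listed at 0 throughout). The leukocyte list summed to between 31.7 and 34.5 FPKM in normal and between 53.0 and 67.2 in senescent libraries, nearly all of it CD68, a lysosomal protein that fibroblasts also express. CD68 rose by 0.85 (SE 0.09, adjusted p = 8.43e-05), and its part in the results was not tested.

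**Figure D2:**
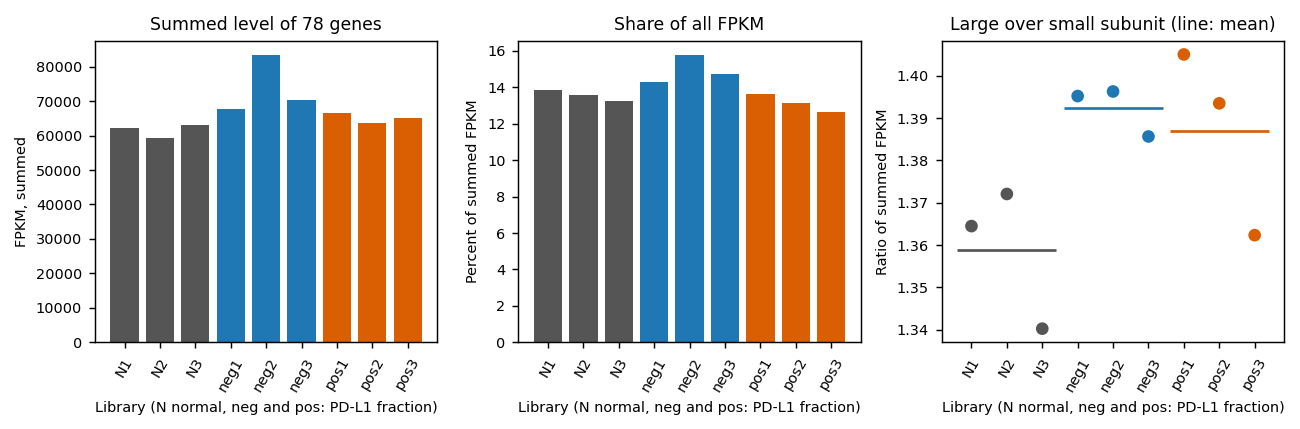
The 78 ribosomal protein genes by library (N1 to N3 normal, neg and pos the PD-L1 fractions): the summed FPKM, the share of all FPKM in percent, and the ratio of summed large-subunit to small-subunit FPKM with group means as lines (this axis does not start at 0). PD-L1-negative replicate 2 had the highest sum, 83330 FPKM, while its ratio lay within the range of the other senescent libraries.

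Against normal cells, 21 members were higher in senescent cells (the mean of both fractions) and 2 were lower, while 55 did not pass the test (limma, Benjamini-Hochberg adjusted p under 0.05 over 12763 genes). Over all genes tested 23.9% were called higher and 29.9% lower. The share of members called higher, 26.9%, was thus close to that of all genes, whereas the share called lower was 2.56%. The median log2 difference was 0.13 over the members and -0.04 over all genes, so the changes were small. In bulk RNA, fewer cells of a type and less RNA per cell cannot be told apart.

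The counts depended on how the libraries were scaled. With each library's FPKM scaled to an equal sum, 14 members were called higher and 8 lower, and the median over all genes moved to -0.15, with the members at 0.01. After the same scaling over genes with NM transcripts, 20 were higher and 7 lower, and all genes moved to -0.11. Quantile normalization gave 13 higher and 17 lower with a member median of -0.02. It gives every library the same set of values, so it can take out a shift shared by many abundant genes. Without PD-L1-negative replicate 2, 23 were higher and 3 lower, and without normal replicate 2, 13 were higher. RPL12, RPL13A, RPL22, RPL26, RPL31, RPL34, RPL39, RPLP2, RPS20 and RPS28 were called higher, and RPS7 and RPSA lower, under each of the 6 scalings run. Over all 24 settings, RPL13A, RPL22, RPL31, RPL34 and RPS28 stayed called higher. No member stayed called lower in all 24. With sample weights the calls of RPL26, RPL39, RPLP2 and RPSA were lost (adjusted p = 0.118, 0.114, 0.1005 and 0.0578).

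**Figure D3:**
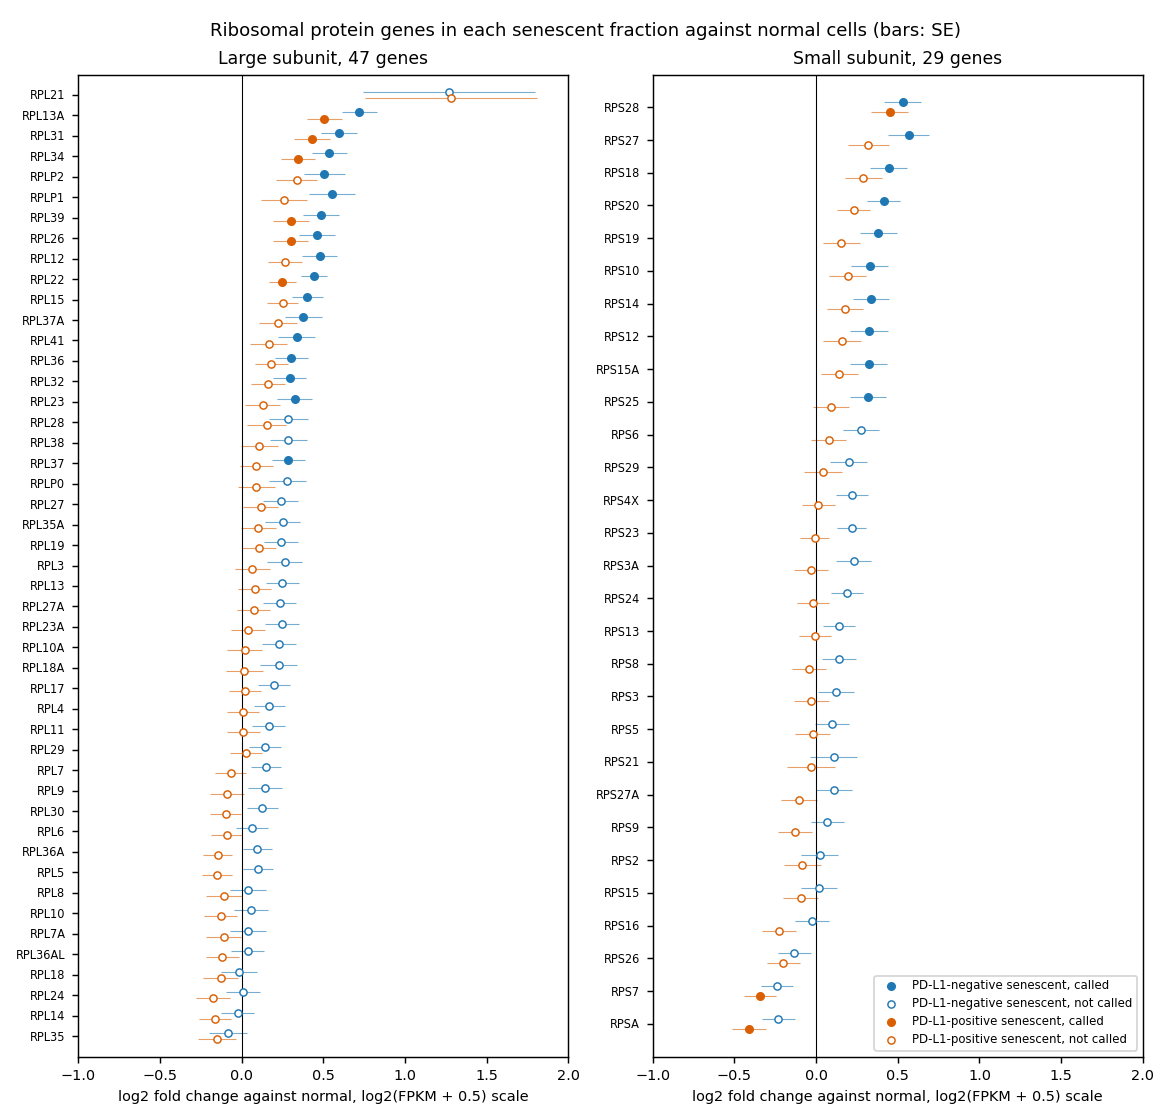
Log2 fold change of 76 of the 78 members (47 large, 29 small) against normal cells on the log2(FPKM + 0.5) scale, with SE, for the PD-L1-negative (blue) and PD-L1-positive (orange) fraction, filled where called. Most points lie between 0 and 0.5, PD-L1-negative values lie above PD-L1-positive ones for all genes plotted except RPL21, and RPL21 has by far the widest error bars.

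Among large-subunit genes, 13 of 47 were higher and none was lower in senescent cells, with a median log2 difference of 0.16. Under the equal-sum scalings 3 or 4 were called lower, RPL14, RPL24 and RPL35 in both, and under quantile normalization 9 were higher and 10 lower. RPL31, which lies beside the exit of the tunnel through which new protein leaves the ribosome, had 974, 904 and 1015 FPKM in normal libraries. It had 1349, 1624 and 1414 in the PD-L1-negative and 1325, 1215 and 1361 in the PD-L1-positive fraction. Every senescent library was above every normal one, and RPL31 rose by 0.51 (SE 0.09, adjusted p = 0.0016).

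RPL39, a short protein that lines the same tunnel, had 883, 779 and 904 FPKM in normal libraries and between 1042 and 1362 in the senescent ones, and it rose by 0.39 (SE 0.10, adjusted p = 0.00742). RPL26, which sits at the tunnel exit, had 954, 858 and 970 FPKM in normal libraries and between 1128 and 1445 in the senescent ones, and it rose by 0.38 (SE 0.09, adjusted p = 0.00773). RPL22, a protein on the outer face near the exit, rose by 0.35 (SE 0.07, adjusted p = 0.00296) from 134, 129 and 135 FPKM to between 154 and 197. In all, 4 of the 8 tunnel and exit proteins listed rose and none fell, with a median of 0.26, where 23.9% of all genes were called higher and 29.9% lower. The other 4, RPL17, RPL19, RPL23A and RPL35, did not pass the test. RPL35 had the lowest estimate of all large-subunit genes, -0.12, and it was called lower under the equal-sum scalings and quantile normalization.

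The stalk of the large subunit, which recruits elongation factors, is made of RPLP0 and several copies of RPLP1 and RPLP2. RPLP1 had 1831, 1732 and 1918 FPKM in normal libraries, 2344, 3156 and 2607 in the PD-L1-negative and 2400, 2279 and 1919 in the PD-L1-positive fraction. The lowest senescent value equalled the highest normal value to within 1 FPKM, and RPLP1 rose by 0.41 (SE 0.12, adjusted p = 0.0182). RPLP2 had 904, 843 and 920 FPKM in normal and between 1097 and 1527 in senescent libraries, and it rose by 0.42 (SE 0.11, adjusted p = 0.0093). RPLP0, the base of the stalk, had 1316, 1289 and 1260 FPKM against 1345 to 1818, and its difference of 0.18 (SE 0.10, adjusted p = 0.139) did not pass. The call of RPLP1 was lost without normal replicate 1 (adjusted p = 0.0568) and without normal replicate 2 (0.0735). It was also lost with no filter (0.0902), with sample weights (0.172) and under quantile normalization (0.187). Under that normalization the estimate for RPLP0 was -0.18 and was called lower.

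RPL13A, a large-subunit protein also known for silencing inflammatory transcripts once released from the ribosome, had 305, 308 and 356 FPKM in normal libraries. It had 490, 605 and 505 in the PD-L1-negative and 470, 445 and 460 in the PD-L1-positive fraction, and it rose by 0.61 (SE 0.09, adjusted p = 0.000607). The table also lists RPL13AP5, a near-identical processed copy, at 1365, 1353 and 1478 FPKM in normal libraries, so fragments of the gene may have been assigned to the copy. RPL13AP5 rose by 0.31 (SE 0.10, adjusted p = 0.0284), and the sum of both rose by 0.37. RPL34, another 60S protein, rose by 0.44 (SE 0.09, adjusted p = 0.0029) from 234, 209 and 242 FPKM to between 287 and 379. RPL21 had the largest estimate, 1.28, but a SE of 0.46 (adjusted p = 0.0386). It had 92.7, 80.3 and 16.7 FPKM in normal libraries and between 98.8 and 142 in the senescent ones, and without normal replicate 3 the estimate was 0.50. Its call was lost when any one of 5 of the 6 senescent libraries was left out (adjusted p up to 0.0689), under both equal-sum scalings (0.0561 and 0.0535) and with no filter (0.0696). The copy RPL21P28 had 865 to 1000 FPKM in normal libraries and a difference of 0.04 (SE 0.10, adjusted p = 0.776), and RPL21 and RPL21P28 summed to a difference of 0.11.

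RPL5 and RPL11, which with 5S RNA form the particle that binds MDM2, did not pass the test. RPL5 had 668, 643 and 694 FPKM in normal libraries and between 585 and 786 in the senescent ones, a difference of -0.03 (95% interval -0.21 to 0.16). RPL11 had 1036, 986 and 1069 FPKM in normal and between 1009 and 1299 in senescent libraries, a difference of 0.09 (95% interval -0.11 to 0.29). For both genes the normal and senescent libraries overlapped. Under quantile normalization RPL11 was called lower, at -0.15. RPL36A and its close relative RPL36AL differed by -0.02 (SE 0.08) and -0.04 (SE 0.09), and neither passed. The remaining large-subunit genes called higher were RPL12, at the base of the stalk, RPL15, RPL36 and RPL37A, with differences of 0.24 to 0.37. RPL36 and RPL37A stayed called in 2 and 4 of the 9 fits that left out 1 library, and the estimate for RPL37A was -0.06 under quantile normalization.

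Among small-subunit genes, 8 of 31 were higher and 2 were lower, with a median log2 difference of 0.10. Under quantile normalization 4 were higher and 7 lower, and the median was -0.04. RPS28, a protein of the head near the messenger RNA exit, had 856, 807 and 904 FPKM in normal libraries. It had 1106, 1436 and 1183 in the PD-L1-negative and 1189, 1167 and 1150 in the PD-L1-positive fraction. The groups did not overlap, and RPS28 rose by 0.49 (SE 0.10, adjusted p = 0.00277). RPS27, a zinc finger protein of the platform side, had 1735, 1644 and 2050 FPKM in normal and between 2075 and 2816 in senescent libraries, and it rose by 0.44 (SE 0.11, adjusted p = 0.00739). Its call was lost under quantile normalization (adjusted p = 0.166), with no filter (0.0554) and with sample weights (0.107). The head proteins RPS10, RPS18, RPS19 and RPS20 and the platform protein RPS14 rose by 0.26 to 0.37. RPS10, RPS14 and RPS19 stayed called in 2 or 3 of the 9 fits that left out 1 library, and RPS14 was at -0.09 under quantile normalization. Of the 14 head proteins listed, 5 rose and none fell, with a median of 0.16, beside the same 23.9% and 29.9% over all genes. RPS16 of that list was called lower under the equal-sum scalings and quantile normalization.

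RPSA, known also as the laminin receptor precursor, had 965, 930 and 943 FPKM in normal libraries. It had 751, 917 and 761 in the PD-L1-negative and 745, 683 and 709 in the PD-L1-positive fraction, so every senescent library was below every normal one. RPSA fell by 0.32 (SE 0.09, adjusted p = 0.0134). RPS7, a protein of the small subunit's body that also binds MDM2, had 793, 742 and 745 FPKM in normal libraries and between 577 and 716 in the senescent ones. RPS7 fell by 0.29 (SE 0.09, adjusted p = 0.0167), and its call was lost without normal replicate 1 (adjusted p = 0.0678) and with sample weights (0.0651). Among all 78 members, RPSA and RPS7 alone lay below the normal range in all 6 senescent libraries, against 27.3% of all genes tested. Above it lay 25 members, against 21.5% of all genes tested.

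RPS6, the small-subunit target of the S6 kinases below mTORC1, had 1239, 1101 and 1226 FPKM in normal and between 1183 and 1594 in senescent libraries. Its difference of 0.18 (95% interval -0.03 to 0.39) did not pass, and under quantile normalization it was called lower at -0.20. RPS3, at the messenger RNA entry, differed by 0.05 (95% interval -0.17 to 0.26), from 520, 476 and 526 FPKM to between 473 and 638. Of 18 members in which mutations cause Diamond-Blackfan anaemia, a failure of red cell production, 7 were higher and 1, RPS7, was lower, with a median of 0.15, and over all genes 23.9% were higher and 29.9% lower. Those higher were RPL15, RPL26, RPL31, RPS10, RPS19, RPS27 and RPS28. Under quantile normalization 4 of the 18 were higher and 5 lower.

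The large and the small subunit were compared by their summed levels in each library. The ratio of large to small was 1.36, 1.37 and 1.34 in the normal libraries, 1.40, 1.40 and 1.39 in the PD-L1-negative ones and 1.41, 1.39 and 1.36 in the PD-L1-positive ones. Means were 1.36 ± 0.0166 (SD, n = 3), 1.39 ± 0.00585 and 1.39 ± 0.0221. Senescent minus normal was 0.03 on the log2 scale, against a largest SD within a group of 0.02, and the normal and PD-L1-positive libraries overlapped. Over transcripts with the highest mean it was 0.00, and a median level over members in place of the sum gave -0.05, so its direction depended on the summary. The median of the genes' own log2 differences was instead higher in the large subunit, by 0.06. That gap was 0.04 under quantile normalization and 0.09 without normal replicate 2. RPL41 and RPLP1 in the large and RPS27 and RPS18 in the small subunit carry much of either sum. A ratio of FPKM sums is not a ratio of subunits.

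Several members have paralogs with names outside the set. Of 8 on the list, 5 passed the filter, and 4 fell while none rose, with a median log2 difference of -1.03. RPL22L1, which can replace RPL22 in the ribosome, had 39.8, 32.001 and 32.7 FPKM in normal libraries. It had 10.6, 13.2 and 11.1 in the PD-L1-negative and 9.69, 9.74 and 11.4 in the PD-L1-positive fraction. The groups were far apart, and RPL22L1 fell by 1.63 (SE 0.11, adjusted p = 1.24e-05) while RPL22 rose by 0.35.

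RPL26L1 had 67.9, 65.6 and 63.2 FPKM in normal libraries, 31.8, 37.5 and 30.5 in the PD-L1-negative and 30.2, 31.1 and 31.0 in the PD-L1-positive fraction, and it fell by 1.03 (SE 0.08, adjusted p = 2.64e-05), whereas RPL26 rose by 0.38. RPL39L, best known from male germ cells, had 39.8, 28.2 and 17.7 FPKM in normal libraries and between 5.52 and 10.1 in the senescent ones. It fell by 1.79 (SE 0.21, adjusted p = 0.000165), whereas RPL39 rose by 0.39. Across 23 alternative settings RPL22L1 ranged from -1.75 to -1.53, RPL26L1 from -1.15 to -0.98 and RPL39L from -2.10 to -1.52, and all 3 stayed called.

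RPL39L was highest in normal replicate 1 and lowest in normal replicate 3, as was MKI67 with 61.3, 33.4 and 12.7 FPKM. RPL26L1 and RPL22L1 differed less among the normal libraries. All 8 proliferation markers listed were lower in senescent cells, with sums of 227 to 788 FPKM in normal and 100.0 to 152 in senescent libraries, and their part in the fall of the paralogs was not tested. RPL7L1, a nucleolar relative of RPL7, fell by 0.45 (SE 0.11, adjusted p = 0.00851). RPS27L, a relative of RPS27 that p53 induces, had 102, 144 and 180 FPKM in normal and between 140 and 188 in senescent libraries, and its difference of 0.21 (SE 0.17, adjusted p = 0.3) did not pass. With 1 library left out the RPS27L estimate ran from -0.0051 without normal replicate 1 (adjusted p = 0.98) to 0.40 without normal replicate 3 (adjusted p = 0.0426). RPL3L and RPL10L were listed at 0 in all 9 libraries.

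**Figure D4:**
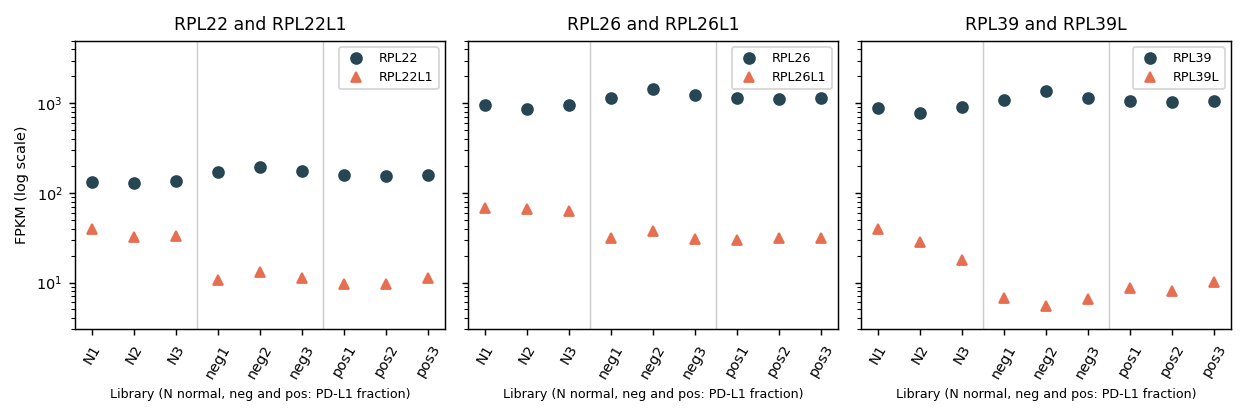
FPKM by library on a log axis for 3 members and their paralogs (N1 to N3 normal, neg and pos the PD-L1 fractions, divided by lines). The members RPL22, RPL26 and RPL39 (circles) were higher in all 6 senescent libraries than in the normal ones, and RPL22L1, RPL26L1 and RPL39L (triangles) were lower in all 6.

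FAU, whose product joins a ubiquitin-like protein to the small-subunit protein eS30, also lies outside the set. It had 403, 348 and 376 FPKM in normal and between 305 and 405 in senescent libraries. Its difference of -0.12 (SE 0.09, adjusted p = 0.292) did not pass, but it was called lower under both equal-sum scalings and quantile normalization (adjusted p = 0.00214 to 0.0362).

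The 2 senescent fractions were each set against the same 3 normal libraries. In the PD-L1-negative fraction 27 members were higher and none was lower, 16 of the large and 11 of the small subunit, where 21% of all genes were called higher and 26.6% lower. In the PD-L1-positive fraction 7 were higher and 2 lower, where 21.1% of all genes were called higher and 26.3% lower. The 7 were RPL13A, RPL22, RPL26, RPL31, RPL34 and RPL39 of the large and RPS28 of the small subunit, and RPS7 and RPSA were the 2. Over 23 alternative settings the PD-L1-positive call was lost in 13 for RPL26, 12 for RPL39, 8 for RPL22 and 6 for RPL34. It was lost in 1 for RPL31, 1 for RPS28 and 0 for RPL13A, and in 4 for RPS7 and 0 for RPSA. The log2 differences of the 7 in the PD-L1-positive fraction were 0.25 for RPL22, 0.30 for RPL26 and RPL39, 0.34 for RPL34, 0.43 for RPL31, 0.45 for RPS28 and 0.51 for RPL13A. In the PD-L1-negative fraction they were 0.44 for RPL22, 0.46 for RPL26, 0.49 for RPL39, 0.54 for RPL34, 0.60 for RPL31, 0.53 for RPS28 and 0.72 for RPL13A. RPS7 and RPSA were at -0.34 and -0.41 in the PD-L1-positive and at -0.24 and -0.23 in the PD-L1-negative fraction. Without PD-L1-negative replicate 2 the PD-L1-negative values were 0.38 for RPL22, 0.37 for RPL26, 0.39 for RPL39, 0.44 for RPL34, 0.52 for RPL31, 0.42 for RPS28, 0.63 for RPL13A, and -0.32 for both RPS7 and RPSA.

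These counts turned on single libraries. Without PD-L1-negative replicate 2, 18 members were higher and 2, RPS7 and RPSA, were lower in the PD-L1-negative fraction, and in the PD-L1-positive fraction 16 were higher and 3 lower. The PD-L1-negative count of 27 became 17, 14 and 17 without normal replicate 1, normal replicate 2 or PD-L1-positive replicate 1. The PD-L1-positive count of 7 became 3 without normal replicate 2 or any one of the PD-L1-positive libraries. Scaled to an equal sum, the PD-L1-positive fraction had 3 members higher and 16 lower, with a median over all genes of -0.15.

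Between the fractions no member was called, and 0% of all genes were called in either direction. At an unadjusted p under 0.05 there were 7 members, among 222 of all 12763 genes. RPL36A had the lowest, with 246, 233 and 240 FPKM in normal, 239, 279 and 252 in PD-L1-negative and 221, 204 and 226 in PD-L1-positive libraries. The fractions did not overlap for RPL36A, at a difference of -0.24 (SE 0.09, 95% interval -0.44 to -0.04, limma adjusted p = 1). RPL5, RPS23 and RPS3A were next, at -0.25, -0.23 and -0.26, and each had an adjusted p of 1. The estimate was below 0 for 76 of 78 members, with a median of -0.17 against 0.01 over all genes. Every PD-L1-positive library was below every PD-L1-negative one for 37 members, against 4.8% of all genes, and above for 0 members, against 4.62%. Under quantile normalization 68 estimates were below 0 with a median of -0.05, and with sample weights 72 with a median of -0.09. Without PD-L1-negative replicate 2, 73 were below 0 with a median of -0.08, and RPL36A, RPL5, RPS23 and RPS3A were at -0.18, -0.18, -0.16 and -0.17. The members' shared direction is not 78 separate observations, because all come from the same 6 libraries.

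**Figure D5:**
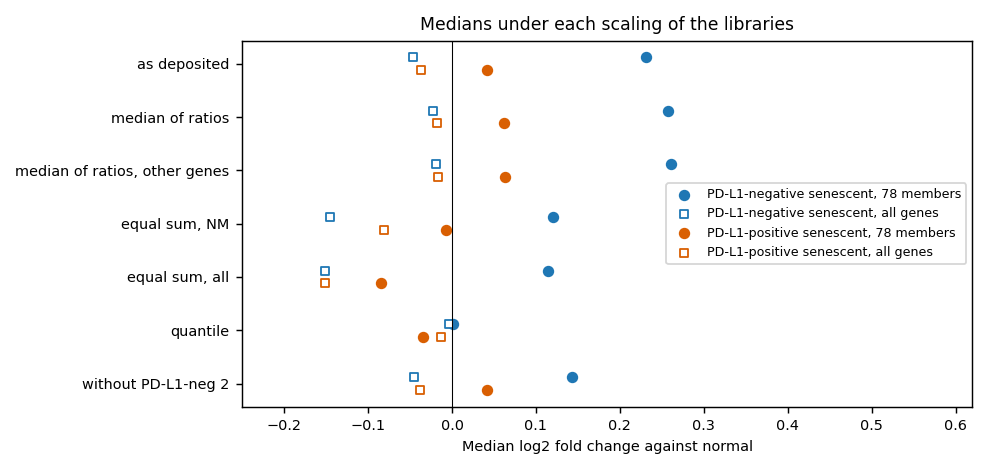
Median log2 fold change against normal cells over the 78 members (filled circles) and over all genes tested (open squares), for the PD-L1-negative (blue) and PD-L1-positive (orange) fraction, under 6 scalings of the libraries and without PD-L1-negative replicate 2. As deposited, the member medians were 0.23 and 0.04. The PD-L1-positive median lay below 0 under quantile and both equal-sum scalings.

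Other genes listed as having TOP messenger RNAs were described by counts, and their own starts are not shown here. The counts are to be read beside the 23.9% of all genes called higher and 29.9% called lower. Of 20 listed translation factors and related genes, 7 were higher and 4 lower in senescent cells, with a median log2 difference of 0.05. The median was -0.07 and -0.03 under the equal-sum scalings and -0.01 under quantile normalization. Those higher were the elongation factors EEF1A1, EEF1G and EEF2, with EIF3L, EIF4B, PABPC1 and TPT1. TPT1, a growth-related protein, had 246, 230 and 294 FPKM in normal and between 428 and 576 in senescent libraries, and it rose by 0.92 (SE 0.10, adjusted p = 0.000107). EEF1G, a subunit of the factor that reloads EEF1A, rose by 0.54 (SE 0.09, adjusted p = 0.00078). The splicing factor HNRNPA1 fell by 1.11 (SE 0.13, adjusted p = 0.000168), from 518, 519 and 364 FPKM to between 183 and 237. NPM1, a nucleolar protein of ribosome assembly, fell by 0.59 (SE 0.08, adjusted p = 0.000371). Of 11 snoRNA host RNAs listed in the TOP class, 6 were higher and 1 lower, with a median of 0.29. GAS5 rose by 0.57 (SE 0.10, adjusted p = 0.00109) and SNHG8 by 0.86 (SE 0.10, adjusted p = 0.00013), while SNHG1 fell by 1.37 (SE 0.20, adjusted p = 0.000475).

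Of 28 other initiation factors listed, 16 were lower and 3 higher (29.9% and 23.9% over all genes), with a median of -0.29. The median stayed between -0.41 and -0.26 under the 6 scalings. EIF4A1, the helicase that opens messenger RNA for scanning, had 639, 588 and 554 FPKM in normal and between 310 and 340 in senescent libraries, and it fell by 0.89 (SE 0.08, adjusted p = 3.94e-05). EIF2B2, of the exchange factor that reactivates eIF2, and EIF2S1, the alpha subunit of eIF2, fell by 0.99 (SE 0.11, adjusted p = 0.000117) and 0.74 (SE 0.10, adjusted p = 0.000287). Of 21 genes of the mTORC1 pathway and of TOP regulation, 9 were lower and 4 higher, with a median of -0.20. EIF4EBP1, a translation repressor that mTORC1 inactivates, fell by 0.92 (SE 0.15, adjusted p = 0.000849), and its relative EIF4EBP3 rose by 1.78 (SE 0.22, adjusted p = 0.000203) from a mean of 0.75 to 3.73 FPKM. LARP1 was among those lower, at -0.41. Of 17 genes for rescue of stalled ribosomes, 9 were lower and 2 higher, with a median of -0.26. ABCE1, which splits ribosomes after termination, fell by 0.90 (SE 0.11, adjusted p = 0.000239).

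The length and the level of the members were set beside their changes. Across 74 members with a transcript length in the annotation, length and log2 difference had a Spearman coefficient of -0.05. Across all 78, mean level and log2 difference had one of 0.28. Both are descriptions across genes of the same 9 libraries, and genes are not independent replicates.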

How the data were processed

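RNA was measured in 9 libraries of 1 fibroblast line. The authors deposited FPKM values for 52741 RefSeq transcripts. The genome build was hg19, and the tools named were DESeq2 1.22.2, HTSeq 0.11.2 and STAR 2.5.2a, all per the submitters' processing notes. The program that made the FPKM is not given in the sources used here. The deposited iRegulon table was not used. Transcripts were summed per gene, 12763 genes with a mean of at least 0.5 FPKM were fitted with limma 3.58.1 (R 4.3.3) on log2(FPKM + 0.5), which understates changes of low genes, with an intensity trend, all 9 libraries in 1 fit (6 residual degrees of freedom) and 4 contrasts, and p-values were Benjamini-Hochberg adjusted over all genes. A gene or transcript was called at an adjusted p under 0.05. Transcripts were fitted in the same way. Depth is unknown beyond the estimate given, so no counting intervals are given. Sequences and transcript lengths come from GRCh38, and no hg19 coordinates are given. Named genes were the 8 largest called rises and falls among members, the 4 lowest p between fractions, a fixed set of members, all paralogs and fusion genes, and up to 4 called genes per other list. Other called members, RPL35, RPS16, LARP1, list members given by name only and transcript examples were named after their values were seen. The members and lists were chosen with earlier results of these data known. A few genes are counted but not reported here by name.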

Additional observations from a re-analysis of the deposited data

How the results depend on the processing

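The counts of members called moved with the processing, and so did most of the single calls. Of the 21 members called higher in senescent cells, 5 stayed called in all 24 settings, and neither of the 2 called lower did. Higher in senescent cells were 21 members, against 11 with no filter, 13 after quantile normalization and 6 with sample weights. Lower were 2, against 17 after quantile normalization, 8 and 7 after equal-sum scaling over all or NM genes and 0 with sample weights. In the PD-L1-negative fraction 27 were higher, against 12 with no filter, 13 after quantile normalization, 17 after equal-sum scaling over all genes, 6 with sample weights and 15 with only the libraries compared. Lower there were 0, against 11 after quantile normalization and 2 and 3 after equal-sum scaling. In the PD-L1-positive fraction 7 were higher, against 12 after median-of-ratios scaling (also over genes that are not ribosomal, a setting chosen after seeing the data), 3 and 11 after equal-sum scaling and 2 with sample weights. Lower there were 2, against 18 after quantile normalization, 16 and 7 after equal-sum scaling and 1 with sample weights. Transcripts called higher were 26, against 14 with no filter and 55 with sample weights. Those lower were 13, against 8 with no filter, 25 after quantile normalization, 20 after either equal-sum scaling and 24 with sample weights.

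Leaving out each library gave 13 to 23 members higher and 1 to 3 lower in senescent cells, 14 to 27 and 0 to 2 in the PD-L1-negative fraction, and 3 to 16 and 1 to 3 in the PD-L1-positive fraction. Transcripts ranged from 13 to 29 higher and from 6 to 17 lower. Between the fractions the count stayed at 0.

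The large to small subunit difference on the log2 scale was 0.0323 in senescent cells, 0.0351 in the PD-L1-negative and 0.0294 in the PD-L1-positive fraction, and ranged from 0.0223 to 0.0392, 0.0252 to 0.0421 and 0.0194 to 0.0422 with libraries left out. It was 0.00404, 0.00856 and -0.000481 for the transcript with the highest mean, and -0.0521, -0.0716 and -0.0326 for a median level over members. Between the fractions it was -0.00575, with 0.039 for a median level over members.

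After quantile normalization the direction turned for RPL11 (-0.147), RPLP0 (-0.182, and -0.212 in the PD-L1-positive fraction) and RPS6 (-0.199, and -0.182 and -0.216 in the fractions). Because that scaling can take out a rise shared by abundant genes, these turns alone do not show that the genes fell. With the transcript of the highest mean in place of the sum, RPS24 stands for NM_033022 alone. That gave 1.63 in senescent cells, 1.73 in the PD-L1-negative and 1.52 in the PD-L1-positive fraction. The causes of the turns after quantile normalization were not tested.

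With the replicate number as a block, 16 members were higher and 2 lower in senescent cells, 18 and 0 in the PD-L1-negative, 4 and 2 in the PD-L1-positive fraction, and 0 between the fractions. The correlations of same-numbered libraries ranged from -0.01 to 0.46, and between the 2 fractions they were 0.09, 0.22 and 0.46. The numbers were not taken as pairs, but these values cannot decide whether the fractions were paired. A library correlated best with its own number in 10 of 18 comparisons, each made with the 3 libraries of another group. Depth limits the minor transcripts near 1 FPKM most.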
